A study of Mus musculus with 11 samples.

Results

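The miR-379 to miR-410 cluster is a row of miR hairpins in the imprinted Dlk1-Dio3 region of mouse chromosome 12, and 35 of the 517 miR assays of a PCR array measured its products in mouse aorta. These assays were chosen by number: every assay whose name carries 1 of 30 cluster numbers, with any letter, arm or star, entered. The miR-376, miR-329, miR-487b, miR-494 and miR-495 assays of the same row were left out, and 4 of the 30 numbers (miR-412, miR-541, miR-1193 and miR-1197) have no assay on the array. In the RefSeq annotation the row from Mir379 to Mir410 holds 37 hairpins on the plus strand, of which 26 had at least 1 of these assays and 9 had both arms assayed. The last 9 hairpins, from Mir453 to Mir410, lie inside Mirg, a long noncoding RNA gene, and 7 of those have an assay here.

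A miR is a short RNA cut from a hairpin precursor. One arm is usually loaded into the silencing complex as the guide, and the other arm, the passenger strand, usually carries the star in older names. The seed, the bases next to the 5′ end, selects target messenger RNAs by pairing. In the Dlk1-Dio3 region the protein-coding genes Dlk1, Rtl1 and Dio3 are expressed from the paternal chromosome, whereas the noncoding RNAs and the miRs are expressed from the maternal chromosome, and the cluster is known from placental mammals. Loss of the cluster in mice gives metabolic defects in newborns, and in rat neurons the cluster is driven by Mef2.

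The mature sequences of the members whose values per mouse are given further on, apart from miR-300*, which stayed near the detection limit, are printed 5′ to 3′ in the order of their hairpins, with the seed (bases 2 to 8) in capitals. They come from RefSeq with build GRCm38.p6, in which 34 of the 35 assays were matched by name.
miR-379: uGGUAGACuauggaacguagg
miR-411: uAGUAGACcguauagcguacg
miR-411*: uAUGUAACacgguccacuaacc
miR-299*: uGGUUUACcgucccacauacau
miR-380-5p: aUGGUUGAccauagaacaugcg
miR-323-3p: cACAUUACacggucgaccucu
miR-543: aAACAUUCgcggugcacuucuu
miR-667: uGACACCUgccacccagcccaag
miR-544: aUUCUGCAuuuuuagcaagcuc
miR-382: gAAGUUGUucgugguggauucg
miR-485*: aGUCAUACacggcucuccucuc
miR-496: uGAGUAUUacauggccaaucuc
miR-409-3p: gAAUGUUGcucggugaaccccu
miR-369-5p: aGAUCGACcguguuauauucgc
miR-369-3p: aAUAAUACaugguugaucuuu
miR-410: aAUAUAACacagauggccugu

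The 34 matched members had 34 distinct seeds, so no pair of members shared one. The guides miR-379 and miR-411, from neighbouring hairpins, were identical at 14 of 21 positions and at 6 of the 7 seed bases. The passenger strand miR-411* was identical to miR-379-3p, the other arm of the miR-379 hairpin, at 20 of 22 positions and at all 7 seed bases; miR-379-3p has no assay among the members, and whether the miR-411* assay also reads it was not tested. The run ACACGG stood in miR-411*, miR-323-3p, miR-485* and miR-154*, which is 4 of 34 members (11.8%) against 2 of 1610 mature mouse miRs outside the cluster (0.124%). This run was picked after the sequences were seen and was searched on the mature strand alone.

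The animals were 11 female apoE-/- mice, which lack apolipoprotein E, the ligand that clears lipoprotein remnants from blood, and which develop atherosclerosis on a fat-rich diet. The control group held 4 mice on a regular diet, described as free of atherosclerosis. A high fat diet was fed to 4 mice for 3 months and to 3 mice for 10 months, with 21% crude fat, 19.5% casein and 0.15% cholesterol. All groups lacked apoE. Every mouse is labelled as aged 6 to 8 weeks, but mice fed for 3 or 10 months were older than that when the aorta was taken. The labels do not say whether this age refers to the beginning of feeding. The control diet has no stated duration, so time on the diet and age cannot be told apart. For the 10-month mice 1 label field reads 3 months, and the titles were followed. Whole aorta was measured, 1 mouse per array, so smooth muscle, endothelium, adventitia, attached fat and plaque cells were measured together.

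Levels are on a log2 scale, as minus the PCR threshold cycle relative to the array's mean over the 285 miRs detected in every mouse, and a log2 fold is a difference between group means of such levels. A well was counted as detected under 35 cycles. Between 322 and 380 miRs were detected per mouse. The array mean cycle was between 23.2 and 25.3 in 10 of the mice and 26.9 in 10-month replicate 2, where the U6 control RNA appeared at cycle 17.7 against 11.05 to 14.9 elsewhere. All 3 smooth muscle and both endothelial marker miRs fixed for the tissue check were detected in every mouse, with miR-145 at 12.06 ± 0.60 and miR-126-3p at 8.39 ± 0.21 in control aorta (SD, n = 4).

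Of the 35 cluster assays, 14 were detected in all 11 mice, 16 in 1 to 10 mice and 5 in none. The assays detected in none were miR-377, miR-654-5p, miR-679, miR-382* and miR-758. A filter that asked for detection in at least 3 mice of a group left 21 members to test among 353 miRs. It was stricter for the 10-month group, where it needed all 3 mice, than for the other groups of 4. Control mice had 24, 21, 24 and 20 members detected, 3-month mice 20, 25, 17 and 19, and 10-month mice 19, 16 and 21. These ranges overlapped. The highest mean levels over all mice belonged to miR-411, miR-667 and miR-409-3p. At 1.31 miR-411 was above the array mean, and the others were close to it, at 0.28 and 0.02. By contrast, miR-369-3p, miR-381, miR-299* and miR-300* were near the limit of detection.

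**Figure D1:**
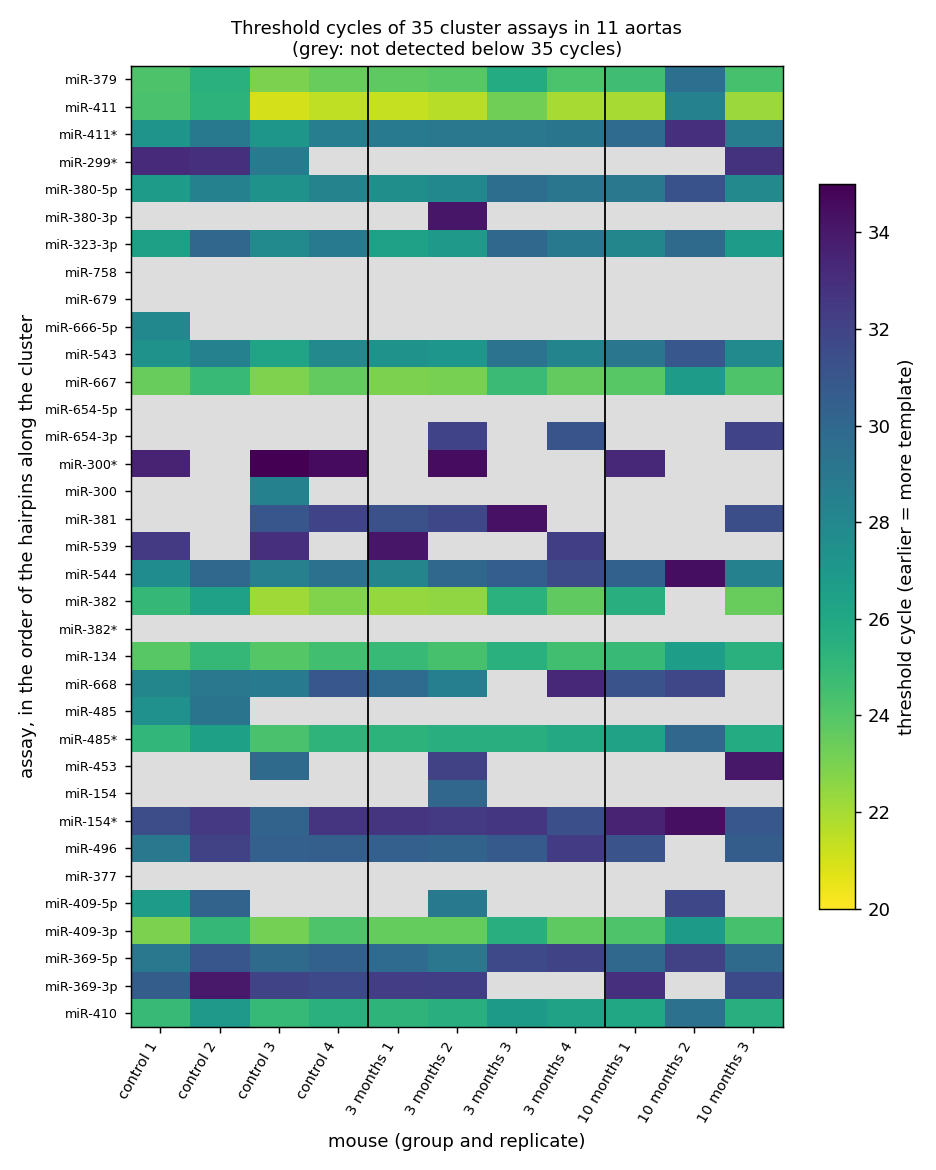
Threshold cycle of each of the 35 cluster assays (rows, in hairpin order) in each of the 11 mice (columns, by group), where a later cycle means less RNA and grey cells mark wells not detected under 35 cycles. Detection was complete for 14 assays and absent for 5.

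After 10 months of high fat diet most cluster miRs had a mean level below that of control aorta. Of the 21 tested members 3 fell, namely miR-411*, miR-485* and miR-379, none rose, and 18 did not pass the test (limma adjusted p under 0.05 over 353 miRs). None of the 3 was called relative to the small-RNA control assays, with no normalization, with the authors' deposited normalized values, with no filter or with only the compared groups fitted, and miR-379 was not called with the replicate number as a block (limma adjusted p = 0.0828). Among all tested miRs 13 fell, which is 3.68%, and 3 rose, which is 0.85%, or 4.53% in either direction. The log2 fold was negative for 19 of the 21 members and for 49.6% of all tested miRs. At an unadjusted limma p under 0.05, 10 members were lower and 0 higher, against 9.35% and 7.65% of all tested miRs. The median log2 fold of the members was -1.05, with a range from -3.54 to 0.45, beside a median of 0.00 over all 353 miRs. Centring each array on its mean over 285 miRs largely holds this second median near 0. With no normalization the medians were -1.41 for the members and -0.35 for all miRs. Some members passed the filter through the control group alone, which favours a lower value in the other groups. Among the 14 members detected in every mouse 3 were called, 13 folds were negative and the median was -1.01. Among all 285 miRs detected in every mouse 12 were called lower, 142 folds were negative and the median was 0.00. In whole tissue, fewer cells of a type and less RNA per cell cannot be told apart.

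The passenger strand miR-411* was at -3.23, -3.63, -3.81 and -4.48 in the control mice, at -5.06, -5.17, -4.07 and -4.73 at 3 months, and at -6.29, -6.08 and -5.49 at 10 months. All 10-month mice lay below every other mouse. It was 4.48-fold lower at 10 months than in controls, a log2 fold of -2.16 (SE 0.39, 95% interval -3.03 to -1.29, limma adjusted p = 0.0226). The log2 fold at 3 months against control was -0.97 (SE 0.36, limma adjusted p = 0.441). The call at 10 months was lost when control replicate 1, control replicate 2 or 10-month replicate 1 was left out, with limma adjusted p from 0.0221 to 0.0867 and log2 folds from -2.39 to -1.98 over the 11 omissions.

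The star strand of the miR-485 hairpin, miR-485*, was at -1.04, -1.16, -1.04 and -1.13 in controls, at -1.54, -1.80, -0.61 and -1.54 at 3 months and at -2.86, -3.14 and -2.60 at 10 months. The control values spanned the narrowest range of any called member, and all 10-month values lay below all others. It was 3.42-fold lower at 10 months than in controls (log2 fold -1.77, SE 0.32, limma adjusted p = 0.0226). Without control replicate 1, 2 or 4, or 10-month replicate 1, it was not called, with limma adjusted p up to 0.0867. Its other arm, miR-485, was detected in control replicates 1 and 2 alone and was not tested. For this hairpin the star arm, detected in all 11 mice, was thus the arm detected more often.

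The first hairpin of the row gives miR-379, which in mouse liver is induced by glucocorticoids. Its level was -0.19, -0.21, 0.30 and 0.62 in controls, 0.05, -0.12, -0.81 and 0.17 at 3 months, and -1.09, -2.59 and -1.20 at 10 months. The 10-month mice again lay below all others, with replicate 2 the lowest. It was 3.38-fold lower at 10 months than in controls (log2 fold -1.76, SE 0.43, limma adjusted p = 0.0489). This call lay at the edge of the threshold: it was lost whichever of the 11 mice was left out, with limma adjusted p from 0.0591 to 0.132 and log2 folds from -2.02 to -1.28.

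**Figure D2:**
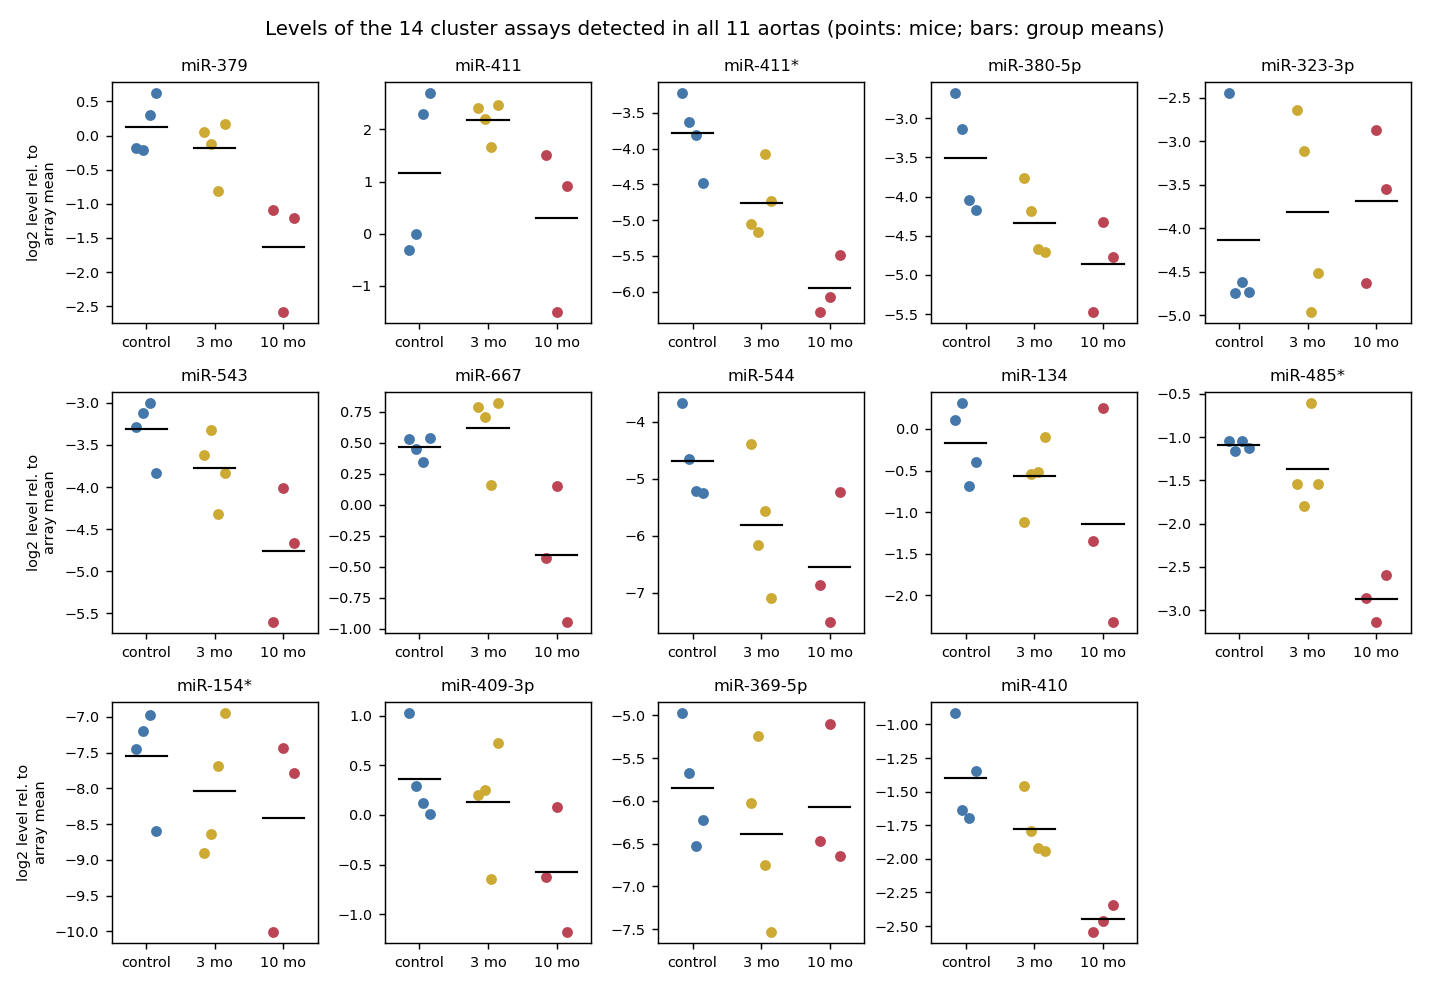
Level of cluster miRs in each mouse (points; log2, relative to the array mean) with group means (bars) for control, 3 months and 10 months, for the 14 members detected in all mice. For miR-411*, miR-485* and miR-379 the 10-month mice lie below every other mouse.

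Other members did not overlap between groups but did not pass the test. In all, the 10-month mice lay below every control for 8 of 21 members and above for none, against 9.35% and 6.52% of all tested miRs. The last guide of the row, miR-410, was at -0.91, -1.63, -1.69 and -1.35 in controls, at -1.46, -1.79, -1.92 and -1.94 at 3 months and at -2.54, -2.46 and -2.34 at 10 months, a log2 fold of -1.05 at 10 months against control (SE 0.28, limma adjusted p = 0.0628). The 10-month values lay within a narrow range below all others. The next smallest p belonged to miR-543, at -3.28, -3.12, -3.00 and -3.83 in controls, -3.62, -3.32, -4.32 and -3.83 at 3 months and -5.60, -4.01 and -4.66 at 10 months, with a log2 fold of -1.45 at 10 months against control (SE 0.42, limma adjusted p = 0.0738).

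For miR-380-5p the values were -2.68, -3.13, -4.04 and -4.17 in controls, -3.76, -4.19, -4.67 and -4.71 at 3 months, and -5.48, -4.32 and -4.78 at 10 months. Its log2 fold at 10 months against control was -1.35 (SE 0.46, limma adjusted p = 0.133). Its other arm, miR-380-3p, was detected in 1 well, of 3-month replicate 2. For miR-667, one of the brightest members, controls were at 0.53, 0.45, 0.34 and 0.54, 3-month mice at 0.78, 0.70, 0.16 and 0.82 and 10-month mice at -0.43, 0.15 and -0.95. The 10-month values were below all others, with a log2 fold of -0.87 against control (SE 0.31, limma adjusted p = 0.154).

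Among the dimmer members, miR-544 was at -3.68, -4.65, -5.22 and -5.25 in controls, -4.40, -6.17, -5.57 and -7.10 at 3 months and -6.87, -7.51 and -5.24 at 10 months. The groups overlapped and the log2 fold at 10 months against control was -1.84 (SE 0.72, limma adjusted p = 0.207). For miR-496 the control values were -4.96, -6.74, -7.15 and -6.35, the 3-month values -6.64, -6.45, -5.80 and -7.99, and the 10-month values -7.66 and -7.41 with replicate 2 not detected. Its log2 fold at 10 months, with that well set at the detection limit of its array, was -1.42 (SE 0.60, limma adjusted p = 0.248). The 10-month mice lay below every control here too.

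The most negative log2 fold of the cluster, -3.54 for miR-382 (SE 1.55, limma adjusted p = 0.278), rested on 1 mouse. Controls were at -1.01, -1.11, 1.10 and 1.31, 3-month mice at 1.37, 1.29, -0.50 and 0.78, and 10-month mice at -2.02 and -0.31, while in 10-month replicate 2 the well did not amplify and was set at the detection limit of -8.08. Without that mouse the log2 fold was -1.23. The brightest member, miR-411, split its controls in a similar way, at -0.30, 0.00, 2.31 and 2.69, with 2.42, 2.20, 1.67 and 2.48 at 3 months and 1.50, -1.50 and 0.92 at 10 months. Its log2 fold at 10 months against control was -0.87 (SE 0.88, limma adjusted p = 0.732), beside -2.16 for miR-411* from the same hairpin. The difference between the arms was not tested.

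Further members overlapped between control and 10 months. The values of miR-409-3p were 1.03, 0.29, 0.12 and 0.01 in controls, 0.21, 0.25, -0.65 and 0.72 at 3 months and -0.62, 0.08 and -1.18 at 10 months, with a log2 fold of -0.94 at 10 months against control (SE 0.43, limma adjusted p = 0.307). Its other arm, miR-409-5p, was detected in 4 mice, namely control replicates 1 and 2 and replicate 2 of each diet group. The log2 fold of miR-134, which in rat neurons limits dendritic spine size through Limk1, was -0.97 (SE 0.55, limma adjusted p = 0.486). That of miR-668 was -3.09 (SE 1.69, limma adjusted p = 0.446), with detection in 4 of 4 controls, 3 of 4 mice at 3 months and 2 of 3 at 10 months. That value rested on 10-month replicate 3, whose well did not amplify and was set at -11.83: without this mouse it was -1.24, and over all single omissions it lay between -4.71 and -1.24. Those of miR-154* and miR-381 were -0.86 and -0.20, with limma adjusted p above 0.05. Detection of miR-381 was seen in 2 of 4 controls and 1 of 3 mice at 10 months, so its fold depends on wells set at the detection limit.

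Only miR-323-3p and miR-300* had a positive log2 fold at 10 months against control among the 21 tested members. The values of miR-323-3p were -2.45, -4.75, -4.61 and -4.74 in controls, -2.64, -3.12, -4.97 and -4.52 at 3 months and -4.63, -2.88 and -3.55 at 10 months. The groups overlapped fully, and its log2 fold was 0.45 (SE 0.75, 95% interval -1.22 to 2.13, limma adjusted p = 0.863). For miR-300* detection was seen in control replicates 1, 3 and 4, in 3-month replicate 2 and in 10-month replicate 1, in wells no earlier than cycle 33.2, at levels of -9.50, -11.69 and -10.45 in these controls, -10.71 at 3 months and -9.75 at 10 months. Its log2 fold of 0.45 (SE 0.81, limma adjusted p = 0.876) depends on wells set at each array's own detection limit, so it gives no level. The arm miR-300 was detected in control replicate 3 alone.

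Both arms and both ends of the row were represented among the lower values. At 10 months against control the 13 tested 3p arms had a median log2 fold of -1.05, with 12 of 13 negative and 2 called. The 8 tested 5p arms had a median of -1.16, with 7 of 8 negative and 1 called. By position, the 8 members from the first 18 hairpins had a median log2 fold of -1.39 and the 13 members from the remaining hairpins a median of -0.97. These differences between subgroups were not tested.

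**Figure D3:**
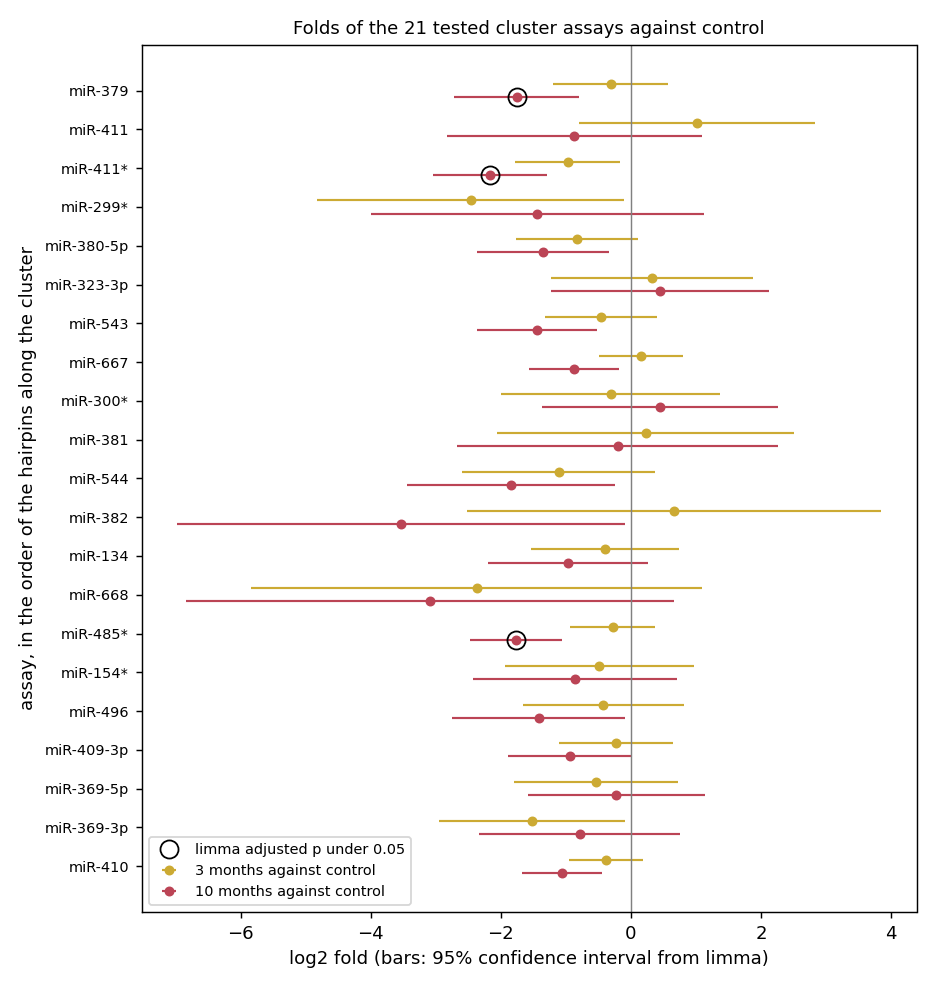
Log2 fold with its 95% interval for each of the 21 tested cluster members (rows, in hairpin order) at 3 months (yellow) and 10 months (red) against control, with the called members circled. At 10 months 19 of 21 folds are negative, and at 3 months 16 of 21.

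At 3 months against control no cluster member was called higher or lower. The background was the same, since 0% of the 353 miRs passed limma's adjusted threshold in this comparison. The smallest limma adjusted p among the members was 0.441. At an unadjusted limma p under 0.05, 3 members were lower and 0 higher at 3 months, against 5.67% and 2.83% of all tested miRs. Of these 3, miR-299* and miR-369-3p passed the filter through the control group alone, and among the 14 members detected in every mouse 1 was lower, 11 folds were negative and the median was -0.39. Among all 285 miRs detected in every mouse 12 were lower at this unadjusted limma p, 146 folds were negative and the median was -0.02. The log2 fold was negative for 16 of 21 members, against 53% of all tested miRs, with a median of -0.40 (range -2.46 to 1.02) beside -0.05 over all miRs. No member had 3-month mice all below the controls, against 2.55% of all tested miRs.

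The 3 members with the smallest p at 3 months were miR-411*, miR-369-3p and miR-299*. The guide miR-369-3p, known in human monocytic cells for binding the AU-rich element of TNF messenger RNA, was at -6.60, -8.68, -8.65 and -7.57 in controls. At 3 months it was at -8.51 and -8.41 in replicates 1 and 2 and was not detected in replicates 3 and 4; at 10 months it was at -9.45 and -8.46, with replicate 2 not detected. Its log2 fold at 3 months was -1.52 (SE 0.64, limma adjusted p = 0.519). The size of this fold depends on wells set at each array's own detection limit. Over 14 alternatives that kept all mice, the fold of miR-369-3p lay between -4.37 and -0.39. Its other arm, miR-369-5p, was at -4.97, -5.68, -6.52 and -6.23 in controls, -6.02, -5.24, -6.75 and -7.53 at 3 months and -6.46, -5.10 and -6.65 at 10 months, and its log2 fold at 3 months was -0.53 (limma adjusted p = 0.841). Detection of miR-299* was seen in control replicates 1, 2 and 3 (cycles 33.1, 32.9 and 28.8), in none of 4 mice at 3 months and in 10-month replicate 3 (cycle 32.8), with a log2 fold at 3 months of -2.46 (SE 1.06, limma adjusted p = 0.519). This fold was set by the detection limit of each array, and it was -0.74 with a common floor and -6.57 with the authors' deposited normalized values, so it gives no size.

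Between 3 and 10 months of diet, again no member was called higher or lower, and 0% of the 353 miRs passed limma's adjusted threshold. The smallest limma adjusted p among the members was 0.0740, for miR-485*, with a log2 fold of -1.50 (SE 0.32). The 10-month mice lay below every 3-month mouse for 6 of 21 members (miR-379, miR-410, miR-411, miR-411*, miR-485* and miR-667) and above for none, against 6.8% and 5.38% of all tested miRs. At an unadjusted limma p under 0.05, 7 members were lower and 0 higher, against 6.8% and 6.23%. The log2 fold was negative for 16 of 21 members, against 45% of all tested miRs, and the members' median was -0.71 (range -4.20 to 1.03) beside 0.06 over all miRs. Among the 14 members detected in every mouse 12 folds were negative and the median was -0.72, against 133 negative folds and a median of 0.05 over all 285 such miRs. For miR-379, miR-411 and miR-411* the log2 folds were -1.45, -1.88 and -1.20, with limma adjusted p of 0.184, 0.393 and 0.223. The comparisons with control share the control mice, and this comparison shares its mice with both, so the 3 sets of values are not independent.

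The direction between 3 and 10 months depended on the reference. With the small-RNA control assays as the reference the median log2 fold of the members from 3 to 10 months was 0.12, while the median of all miRs became 0.89. With the authors' deposited normalized values the members' median was -0.15 and that of all miRs 0.63. At 10 months against control the members' median minus the median of all miRs lay between -1.46 and -0.95 over 27 settings. From 3 to 10 months that difference lay between -1.05 and -0.72, and at 3 months against control between -0.43 and -0.24. A reference that shifts all miRs of an array alike cannot change this difference. Omitting a mouse of the group not compared did not change it either, so such settings give no separate support.

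**Figure D4:**
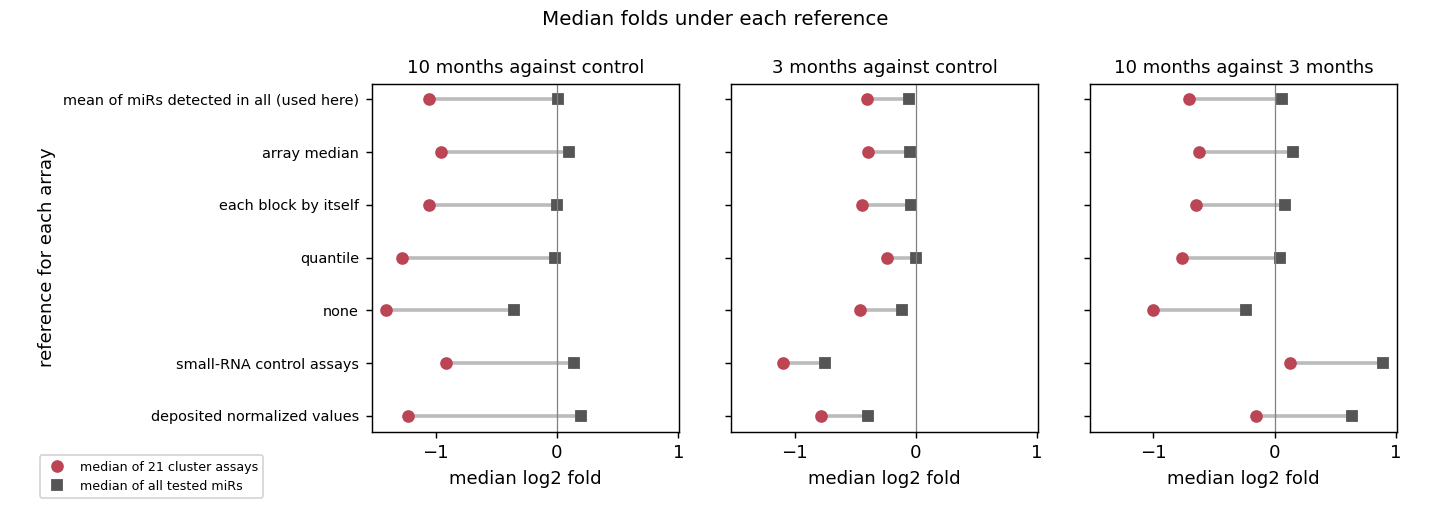
Median log2 fold of the 21 tested cluster members (red) and of all tested miRs (grey) in the 3 comparisons under each choice of reference. The members' median lies below that of all miRs in every row of every panel, while from 3 to 10 months it moves from -0.71 to 0.12 with the small-RNA control assays. A reference that only shifts whole arrays moves both medians alike, so the gap between them was fixed in advance for such rows.

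The mean level of the 14 members detected in every mouse, given as a description, was -2.38 ± 0.24 in controls (SD, n = 4), -2.70 ± 0.17 at 3 months (SD, n = 4) and -3.50 ± 0.23 at 10 months (SD, n = 3). The control mice lay between -2.59 and -2.04, the 3-month mice between -2.91 and -2.50 and the 10-month mice between -3.77 and -3.33. The 10-month mice were thus below all others on this mean, whereas the control and 3-month ranges overlapped. The value of 10-month replicate 2, whose array stood apart, was the highest of its group.

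Of 30 further assays from the region, the miR-376, miR-329, miR-487b, miR-494 and miR-495 assays included, 20 were tested and 10 of them fell at 10 months against control, with 19 of 20 log2 folds negative and a median of -1.57. Of the 312 tested miRs outside the region 0 fell and 3 rose by limma, with 9 lower and 27 higher at an unadjusted p under 0.05, and their median was 0.11. At 3 months 16 of the 20 other Dlk1-Dio3 miRs were negative with a median of -0.58 and none was called by limma, where 3 were lower at an unadjusted p under 0.05. From 3 to 10 months 17 of 20 were negative with a median of -1.09 and none was called, where 11 were lower at an unadjusted p. These lists were chosen with results of the same mice known, and the difference between the lists was not tested.

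Marker miRs of cell types were measured beside these values. The summed level of both endothelial markers was 8.37 to 8.84 in controls, 8.54 to 9.51 at 3 months and 8.90 to 10.04 at 10 months, so the 10-month mice lay above all controls. Of the 2, the dimmer miR-126-5p overlapped by itself, at 5.11 to 5.51 in controls and 5.43 to 5.45 at 10 months. Fibroblast and mesenchymal markers (5 of 6 detected in every mouse) summed to 6.76 to 7.32, 7.0004 to 7.44 and 7.29 to 7.71, with overlap. Smooth muscle markers (3 of 3) summed to 11.65 to 12.93, 12.06 to 12.89 and 11.37 to 12.86, with overlap.

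The blood lineage markers (5 of 6) summed to 6.34 to 7.23 in controls, 6.31 to 7.14 at 3 months and 6.47 to 8.16 at 10 months. The neural markers (4 of 6), a cell type in which this cluster is well known, summed to 1.21 to 3.45, 1.26 to 3.31 and 1.93 to 3.14. Both sums overlapped between groups. The striated muscle markers (4 of 6) summed to 6.80 to 7.17, 7.08 to 8.26 and 6.68 to 7.93, the epithelial markers (5 of 6) to 1.86 to 3.32, 2.24 to 2.74 and 2.46 to 2.88, and the adipose and liver markers (3 of 3) to 4.24 to 6.75, 4.75 to 5.71 and 6.15 to 6.67, where the 10-month mice lay above every 3-month mouse.

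A sum follows its brightest marker, and single markers of several lists lay apart from control at 10 months. Of 38 markers, 5 lay above every control in all 10-month mice, 1 lay below and 32 overlapped, against 6.52% and 9.35% of all tested miRs. The lower one was the muscle miR-1, at 0.83 to 2.52 in controls and -0.77 to 0.19 at 10 months. The neural list held miR-129-3p, at -4.77 to 0.06 in controls and 0.35 to 2.00 at 10 months, and miR-129-5p, detected in 1 of 4 controls at -5.62 and in all 10-month mice at -4.13 to -2.87. The remaining higher markers came from other lists. They were miR-29a of the mesenchymal list (6.12 to 6.53 in controls, 6.87 to 7.31 at 10 months), miR-193 of the adipose and liver list (-3.53 to -2.24 and -1.45 to -0.77) and the endothelial miR-126-3p (8.21 to 8.69 and 8.76 to 9.98). No marker was undetected in all mice, and the part of cell makeup in the lower cluster miRs was not tested.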

How the data were processed

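Total RNA of the whole aorta of 11 mice was assayed by PCR array, with the mirVana kit used for extraction per the labels' protocols. The authors deposited threshold cycles, which run backwards on a log2 scale and reach 40, read here from the values as no amplification. The instrument is not given in the sources used here. A second deposited log2 table of the same 517 miRs equals, within 5e-05, the cycle minus the mean of snoRNA202 and snoRNA429, as found by comparing the tables.

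The level used was minus the cycle, with wells at 35 cycles or later set to 35, minus the array mean over the 285 miRs detected in all 11 mice. The 353 miRs detected in at least 3 mice of a group were tested with all 3 groups in 1 model (limma 3.58.1 in R 4.3.3, two-sided, 8 residual degrees of freedom), and calls needed a Benjamini-Hochberg adjusted p below 0.05. Folds assume a doubling per cycle. The number of mice limits the precision. Each p-value sets a difference of group means against the spread between these mice, with that spread moderated over all tested miRs. The script was tested on simulated data. No 2 columns of the table were identical.

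Members were named per mouse by p, by level, by a positive fold or as the other arm of a named member. The members, lists, rules and alternatives were chosen with earlier results of these data known. Alternatives covered the reference, detection limit, filter, model, replicate number and mice left out, and 1 (a common floor after centring) was added after seeing the data.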

Additional observations from a re-analysis of the deposited data

Results flagged for a closer look

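In control aorta, miR-323-3p was at -2.45 in replicate 1, far above the other control mice at -4.61 to -4.75. Of 34 groups of 4 mice examined in this way 1 stood out, and chance gives about 1 in 20.

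Among members too rarely detected to test, 3 were detected in high fat diet mice and in no control. They were miR-154, in 3-month replicate 2 at cycle 30.0, miR-380-3p, in the same mouse at cycle 34.1, and miR-654-3p, in 3 mice with the earliest well at cycle 31.1. The reverse was seen for miR-485 (2 controls), miR-666-5p (1 control) and miR-300 (1 control), which were detected in no high fat diet mouse. The diet groups together also held more mice than the control group. An assay for a plant miR, absent from mice, gave a product at cycle 34.0 in control replicate 1 (1 of 22 wells), and 9 of the 226 detected member wells were later than that.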

How the results depend on the processing

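At 10 months against control 3 cluster members and 16 miRs in all were called. No cluster member was called relative to the small-RNA control assays, with no normalization, the deposited normalized values, no filter, or only the groups compared, and 5 were called with each assay block centred, only miRs detected in every sample, or array weights. The count over all miRs was then 0 with the small-RNA controls, no normalization, the deposited values or only the groups compared, and 1 with no filter. It was 6 with the replicate block, 23 with each assay block centred, 25 with array weights and 29 with only miRs detected in every sample. With 1 mouse left out, 0 to 2 cluster members were called (0 when control replicate 1 or 2 or 10-month replicate 1 was dropped, and 1 when it was control replicate 4) and 1 to 12 miRs in all (1, 2, 3 and 10 on omission of control replicates 2, 4, 1 and 3, then 8, 10 and 8 on omission of 3-month replicates 1, 2 and 3, then 2 and 10 on omission of 10-month replicates 1 and 2). At 3 months against control the members' median log2 fold of -0.40 became -1.09 with the small-RNA controls, and 0 to 1 miRs were called with 1 mouse left out (1 when it was control replicate 1 or 4 or 3-month replicate 3). From 3 to 10 months the members' median of -0.71 became 0.12 with the small-RNA controls and -0.15 with the deposited values; 1 member was called with each block centred, 2 with array weights and 1 with the common floor, and over all miRs 5, 10 and 6 were called with these, 3 with quantile normalization, 1 with the deposited values and 1 with a trended prior. The cause of these shifts was not tested. Over 26 alternatives miR-411* was called lower at 10 months against control in 18, miR-485* in 17, miR-379 in 9, miR-410 in 4, miR-543 in 3 and miR-496 in 1, and no called fold changed sign. With the replicate number as a block 2 cluster members were called (miR-411* and miR-485*). In the check of replicate numbers, same-numbered mice correlated between -0.36 and 0.47, and 7 of 11 mice correlated best with their own number. These are not correlations of the full levels, which reached 0.988 between arrays over the 285 miRs detected in every mouse. How many of the 11 mice would match their own number by chance was not computed. The main fit did not use the numbers as pairs, and whether they mark pairs or a batch was not tested. With members' median folds between -1.26 and -0.97, -0.48 and -0.31, and -0.97 and -0.57 when a mouse was left out, for 10 months and 3 months against control and 10 against 3 months, the sign of each was kept. Wells near the detection limit and 3 or 4 mice per group limit what can be called.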

Other observations

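Some members were strongly present in a few mice and absent in the rest. In control replicates 1 and 2 miR-409-5p was detected at cycles 26.7 and 30.2 and miR-485 at cycles 27.4 and 29.2, and neither was detected in control replicates 3 and 4. In the same pair of controls miR-411 was at -0.30 and 0.00 and miR-382 at -1.01 and -1.11, whereas controls 3 and 4 were above 1 for both. Members detected early in a single mouse were miR-666-5p, at cycle 28.0 in control replicate 1, and miR-300, at cycle 28.4 in control replicate 3. These patterns were noticed after the values were seen, and their cause was not tested.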
